A study of Mus musculus with 6 samples.

Results

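The aquaporins are a family of membrane channels for water, and some of its members, the aquaglyceroporins, also carry glycerol. Of 8 family genes considered (Aqp1, Aqp3, Aqp4, Aqp5, Aqp7, Aqp8, Aqp9 and Aqp11), 5 were found by gene symbol among the 17924 genes of the RNA-seq table. These were Aqp1, Aqp3, Aqp5, Aqp7 and Aqp11, and all of them were among the 16252 genes tested. Aqp4, Aqp8 and Aqp9 were not analysed here. The family was chosen by the low level of Aqp5 in Nelfb-/- cells as well as by its function, so the members were selected in part on the measured Aqp5 values of these 6 libraries, and the contrast of Aqp5 is given as a description, with no test.

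The study asked whether Nelfb, a subunit of the negative elongation factor that holds RNA polymerase II near the start of genes, is needed for dermal fat cells to form. Fibroblasts from the dorsal dermis of newborn (P0) mice on a C57BL/6J background were kept for 14 days in a commercial adipocyte differentiation medium, and total RNA was sequenced from 3 CTL and 3 Nelfb-/- libraries. Nelfb-/- mice were Nelfb fl/fl Pdgfra-Cre+. CTL mice also carried Pdgfra-Cre+ and were either Nelfb wt/wt or Nelfb fl/wt, and the labels do not say which of these a given CTL library was. Every library therefore carried the Cre transgene, driven by Pdgfra, a gene of fibroblasts and fat cell precursors, and a CTL library may have lacked 1 Nelfb allele. Cells were taken from digested dermis, and the labels name no sort, so that cells in which Cre was never active could remain.

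Aquaporins differ in what they carry and where they sit. Aqp7 is the glycerol channel of fat cells, through which glycerol released from stored triglyceride leaves the cell. Aqp3, another aquaglyceroporin, is best known from the basolateral membrane of kidney collecting duct and from keratinocytes. Aqp1 is the water channel of red blood cells, kidney proximal tubule and vascular endothelium, and Aqp5 is the apical water channel of salivary, lacrimal and sweat glands. Aqp11 is a distant member found in the membrane of the endoplasmic reticulum.

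Levels are in CPM, reads per 1000000 reads on the listed genes. Depth was 17.2 to 29.4 M such reads per library (M, 1000000), and 3 reads were worth 0.102 to 0.175 CPM. Nelfb itself fell to 3.90 to 5.55 CPM in Nelfb-/- from 17.3 to 22.3 CPM in CTL libraries (log2 fold change -1.99 ± 0.22 SE, n = 3 per group, limma with Benjamini-Hochberg adjustment, adjusted p = 0.0050). CTL replicate 3 and Nelfb-/- replicate 1 stood apart from the other libraries, at opposite ends of a second principal component that held 27.7% of the variance. The 10 adipocyte markers examined, such as Adipoq and Fabp4, were present in every library, with summed levels of 24565 to 41391 CPM in CTL and 18911 to 29112 CPM in Nelfb-/- cells. In bulk RNA, fewer cells of a type and less RNA per cell cannot be told apart.

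Besides Aqp5, 3 members were above the filter on low values (a mean of 0.448 CPM) in both groups, and of these Aqp7 and Aqp11 fell in Nelfb-/- cells. The other one, Aqp1, was higher on average but did not pass the test. Aqp3 was called lower as well. A gene was called when its adjusted p was at most 0.05 and its change at least 2-fold. By that rule 11.2% of all genes tested were called, 3.64% lower and 7.58% higher in Nelfb-/- cells. For Aqp7, Aqp3 and Aqp11 the highest Nelfb-/- library was under the lowest CTL library, an arrangement found in 16.1% of all genes tested. Aqp3 and Aqp5 passed the filter, which was set on the mean of all 6 libraries, through their CTL libraries, since their Nelfb-/- mean lay below 0.448 CPM. The call on Aqp3 is therefore given for that gene alone and supports no count.

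**Figure D1:**
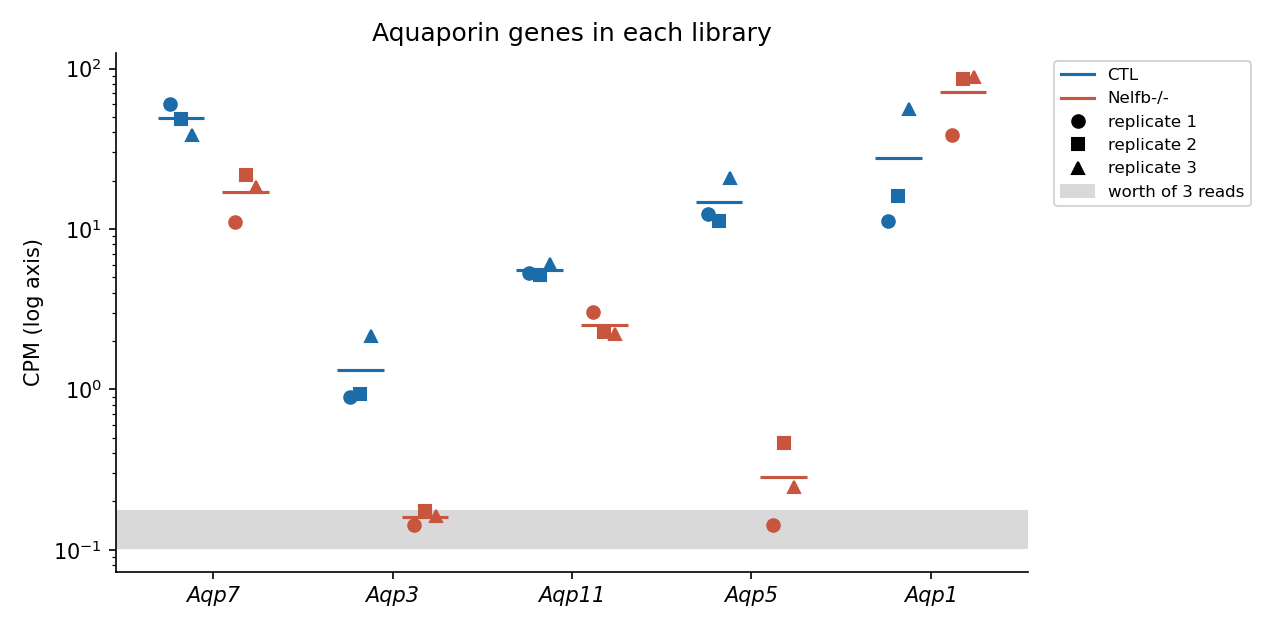
Level of each aquaporin gene in CPM (log axis) in the 3 CTL and 3 Nelfb-/- libraries, with symbols for replicates, a bar at each group mean and a gray band for the worth of 3 reads in the 6 libraries. The groups are apart for Aqp7, Aqp3, Aqp11 and Aqp5, and for Aqp1 the CTL library at 55.9 CPM lies above the Nelfb-/- library at 38.3 CPM.

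Aqp7, the glycerol channel of fat cells (ENSMUSG00000028427, mm10 chromosome 4, 41033074 to 41048139, minus strand), had the highest mean level per length of the 5 genes in CTL cells. CTL replicates 1, 2 and 3 held 59.8, 48.7 and 38.4 CPM of it, against 11.1, 21.5 and 18.4 CPM for the Nelfb-/- replicates in the same order. The lowest CTL library was thus above the highest Nelfb-/- library, and the lowest value of all was that of Nelfb-/- replicate 1. The means were 49.0 ± 10.7 CPM and 17.0 ± 5.35 CPM (SD, n = 3 each), which gave -1.56 ± 0.29 on the log2 scale (SE, adjusted p = 0.018 by limma). The call was lost without CTL replicate 1 (adjusted p = 0.071), CTL replicate 2 (0.072) or Nelfb-/- replicate 3 (0.069), while the change kept its direction, from -1.75 to -1.28 on the log2 scale. Over all genes, without CTL replicate 1, CTL replicate 2, Nelfb-/- replicate 2 or Nelfb-/- replicate 3 the genes called numbered 426 to 945, in place of 1824 with all libraries.

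Summed adipocyte markers overlapped between the groups, and the level of Aqp7 was also set against theirs. Per 1000 CPM of summed adipocyte markers, Aqp7 stood at 1.44, 1.33 and 1.56 CPM in the CTL libraries and at 0.587, 0.740 and 0.741 CPM in the Nelfb-/- libraries. On this scale the groups did not overlap for Aqp7. Nor did they for the scarce Aqp3, at 0.0218 to 0.0872 CPM in CTL and 0.0060 to 0.0075 CPM in Nelfb-/- libraries. For Aqp11 they overlapped, at 0.129 to 0.248 CPM in CTL and 0.0780 to 0.160 CPM in Nelfb-/- libraries. How many of all genes are apart on this scale was not counted. The sum came mostly from Fabp4 and Lpl, so the scale rests largely on those markers. With 3 libraries against 3, an exact two-sided permutation test cannot go below p = 0.1, so no such test was made for a single value. Of the 10 adipocyte markers, 1 fell (Retn, the hormone resistin, log2 fold change -2.12) and 1 rose (Lep, the hormone leptin, 5.26). Over all genes tested, 3.64% were called lower and 7.58% higher. The median log2 fold change of the markers was -0.76, beside 0.07 over all genes tested. Leaving out 1 library changed the count of 2 markers called to between 0 and 4. It was 0 without CTL replicate 2, Nelfb-/- replicate 2 or Nelfb-/- replicate 3, 1 without CTL replicate 1, and 4 without CTL replicate 3. What part the adipocyte content of the cultures had in the level of Aqp7 was not tested.

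Aqp3 is the neighbor of Aqp7 on chromosome 4 (ENSMUSG00000028435, 41092722 to 41098183, minus strand), 44.6 kb away, and no other tested gene lay between them. It was scarce in all libraries, with 0.902, 0.933 and 2.14 CPM in CTL replicates 1, 2 and 3 against 0.142, 0.175 and 0.163 CPM for the Nelfb-/- libraries. In reads, whole within 0.02 in all 6 libraries, these were 20, 20 and 63 in CTL and 3, 3 and 4 in Nelfb-/- libraries, so the Nelfb-/- values sat at or just above the limit of 3 reads. Summed over libraries there were 103 reads against 10, a ratio of 8.86 after adjustment for depth (95% interval 4.63 to 19.0, counting error only). The log2 fold change was -2.63 ± 0.47 (SE, n = 3 per group, limma, adjusted p = 0.016), and the highest CTL value was that of replicate 3.

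The call on Aqp3 was close to its limit. Without CTL replicate 1, CTL replicate 2, Nelfb-/- replicate 2 or Nelfb-/- replicate 3 the adjusted p became 0.0502, 0.054, 0.054 and 0.074, with log2 fold changes of -2.84 to -2.64. With a pseudocount of 1 CPM, which damps changes of scarce genes, the log2 fold change of Aqp3 was -0.96 and the 2-fold limit was missed (adjusted p = 0.035).

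The stretches just upstream of Aqp7 and Aqp3 are shown because both aquaglyceroporin genes lie side by side on the same strand. Sequences are RefSeq's for GRCm38.p6 (the assembly of mm10), read 5′ to 3′ on the minus strand, and end at the last base before the annotated gene. The first is chr4:41048140-41048386, with the nuclear receptor motif AGGTCA (here as its reverse complement) in capitals, and the second is chr4:41098184-41098433, with the GC box GGGCGG (as its reverse complement) and the TATA box TATAAA in capitals.
Aqp7: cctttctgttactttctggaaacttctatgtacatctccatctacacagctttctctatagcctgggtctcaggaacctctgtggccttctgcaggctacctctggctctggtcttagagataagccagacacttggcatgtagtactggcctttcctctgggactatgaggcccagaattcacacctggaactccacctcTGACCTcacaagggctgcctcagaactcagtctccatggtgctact
Aqp3: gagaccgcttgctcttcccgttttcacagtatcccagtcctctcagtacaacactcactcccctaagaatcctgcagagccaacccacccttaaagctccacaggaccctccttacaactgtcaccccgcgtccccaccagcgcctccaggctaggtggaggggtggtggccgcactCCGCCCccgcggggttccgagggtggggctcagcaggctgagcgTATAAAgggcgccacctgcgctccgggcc

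Windows from 250 bases before to 50 bases after the start were searched on both strands. The AGGTCA of Aqp7 began 49 bases before its start, and AGGTCA was found in 16.3% of all 32851 promoter windows of this length. Counted from a further annotated start of Aqp7, within the gene, that same AGGTCA lay at -223, and another lay at -101. No window of an aquaporin gene held 2 exact copies of AGGTCA in the same direction with 1 base between. That is an exact form of the direct repeat read by PPAR and RXR nuclear receptors. It overlaps the single motif and was found in 0.0396% of windows. Repeats with an inexact copy were not searched for, so the windows of Aqp7 or of another member may hold one. The TATA box of Aqp3 began at -29 and its GC box at -73, motifs held by 13.6% and 35.7% of windows. CCAAT, present in 37.4% of windows, was in no aquaporin window. The Aqp7 window had a GC content of 49.7%, beside a median of 52.7% over all windows, and no CpG, and the window of its further start had 55.0% GC and 3 CpG. The Aqp3 window had 64.0% GC and 21 CpG. A match of letters is a description of the sequence and no evidence of binding.

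The genes around the pair were examined next. Within 200 kb of Aqp7 or Aqp3, 9 other genes were tested. None of these was called by limma, and 3 had an unadjusted p under 0.05, namely Nol6 (log2 fold change 0.43), Ube2r2 (-0.40) and Dcaf12 (-0.41). The nearest gene on the other side of Aqp7 was Nfx1, a zinc finger factor, 7.08 kb away, whose change was -0.59 ± 0.28 on the log2 scale (SE, adjusted p = 0.20). On the far side of Aqp3, at 16.2 kb, was Nol6, a nucleolar protein, with a standard error of 0.13 and an adjusted p of 0.067.

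Aqp11, the aquaporin of the endoplasmic reticulum (ENSMUSG00000042797, chromosome 7, 97724006 to 97738289, minus strand), had the smallest relative spread of the 5 genes among CTL libraries. CTL replicates 1, 2 and 3 held 5.32, 5.13 and 6.09 CPM, and Nelfb-/- replicates 1, 2 and 3 held 3.03, 2.27 and 2.20 CPM. The groups were apart, with means of 5.51 ± 0.505 and 2.50 ± 0.462 CPM (SD, n = 3 each) and the fitted change was -1.14 ± 0.24 on the log2 scale (SE, adjusted p = 0.025 by limma). It lay close to the 2-fold limit and dropped under it with a pseudocount of 1 CPM (-0.90). Leaving out CTL replicate 1, CTL replicate 2, Nelfb-/- replicate 2 or Nelfb-/- replicate 3 raised the adjusted p of Aqp11 to between 0.086 and 0.113. The nearest tested neighbor on each side of Aqp11, Clns1a at 3.21 kb and Pak1 at 50.3 kb, had log2 fold changes of 0.37 and 0.48, and Rsf1, at 31.2 kb on the side of Clns1a, had -0.40. None of these 3 was called. Of 5 genes tested within 200 kb of Aqp11, 1 rose, Aamdc (log2 fold change 1.24, adjusted p = 0.0079).

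Aqp5, the water channel of glands (ENSMUSG00000044217, chromosome 15, 99590782 to 99594829, plus strand), had the largest fold difference between group means among the 5 genes, though not the largest difference in CPM. CTL replicates 1, 2 and 3 had 12.4, 11.2 and 20.7 CPM, from 274, 241 and 609 reads. Nelfb-/- replicates 1, 2 and 3 had 0.142, 0.466 and 0.245 CPM, from 3, 8 and 6 reads. Summed over libraries, 1124 reads stood against 17, a ratio of 56.9 after adjustment for depth. The means were 14.8 ± 5.17 and 0.284 ± 0.165 CPM (SD, n = 3 each), and the fitted log2 fold change was -5.56 ± 0.46 (SE). With a pseudocount of 1 CPM it was -3.58.

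Markers of keratinocytes and gland epithelium, kept as a joint list, were examined beside Aqp5, since gland epithelium is its usual home. Of 10 listed, 6 had values (Krt15, Epcam, Krt8 and Krt18 did not), and they summed to 5.91, 6.77 and 23.0 CPM in CTL libraries against 4.22, 14.7 and 14.7 CPM without Nelfb. None of the 6 was at 0 in any library. Krt19, a keratin of simple and glandular epithelium, had 3.97, 4.43 and 20.5 CPM in CTL replicates 1, 2 and 3 against 0.332, 2.68 and 1.43 CPM for the Nelfb-/- libraries. As with Aqp5, its highest value was in CTL replicate 3 and its lowest in Nelfb-/- replicate 1, and its log2 fold change of -2.64 ± 0.91 missed the threshold (limma, adjusted p = 0.099). Krt14, of basal keratinocytes, was called higher (3.50, adjusted p = 0.031), but like Krt5 it passed the filter on low values through its Nelfb-/- libraries. Krt5, also of basal keratinocytes, was at 0.068 to 0.187 CPM in CTL against 0.284 to 4.2 CPM in Nelfb-/- libraries (3.39, adjusted p = 0.072). Krt10, of differentiating keratinocytes, was at 1.35 to 2.14 against 2.04 to 3.96 CPM (0.83, adjusted p = 0.16). Krt1 and the epithelial cadherin Cdh1 were too scarce to test, and both were higher in every Nelfb-/- library, Cdh1 at 0.034 to 0.280 against 0.427 to 0.524 CPM. Of the 4 markers tested, Krt19 alone had a negative value, and the median log2 fold change was 2.11. The part of epithelial cells in the level of Aqp5 was not tested.

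The RefSeq start of Aqp5 used for its window lies inside the gene as the table places it, so that 296 of the 300 window bases are within the annotated gene. This window was the most GC-rich of the family, with 79.7% GC and 46 CpG, and 98.8% of all promoter windows had a lower GC content. A stretch of 30 bases is shown because it holds the only E-box found in the family (CACGTG, at -87 from the RefSeq start, present in 7.15% of windows) and, just after it, the first of 3 GC boxes (at -77). It is chr15:99590934-99590963 of GRCm38.p6, plus strand, with both motifs in capitals.
Aqp5: cgtgggtCACGTGgcccGGGCGGgtccgcc

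Around Aqp5, 11 genes were tested within 200 kb. By limma's adjusted threshold 0 fell, likewise 0 at an unadjusted p under 0.05, and 1 rose, Nckap5l (log2 fold change 1.27, adjusted p = 0.0045). The nearest on each side were Racgap1, a regulator of cell division, at 25.7 kb (0.81 ± 0.68) and Bcdin3d, an RNA methyltransferase, at 116 kb (-0.50 ± 0.26), with adjusted p of 0.46 and 0.23. Gpd1, which makes glycerol 3-phosphate, lay 123 kb from Aqp5 and had a log2 fold change of 0.87 ± 0.52 (adjusted p = 0.30).

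Aqp1, the water channel of endothelium and red cells (ENSMUSG00000004655, chromosome 6, 55336432 to 55348555, plus strand), was the member that went the other way. CTL replicates 1, 2 and 3 contained 11.2, 16.1 and 55.9 CPM, whereas the Nelfb-/- replicates contained 38.3, 86.6 and 89.1 CPM. CTL replicate 3 lay above Nelfb-/- replicate 1, the same 2 libraries that stood apart over all genes, so the groups overlapped. The means were 27.7 ± 24.5 and 71.3 ± 28.6 CPM (SD, n = 3 each), and the log2 fold change of 1.62 ± 0.64 did not pass (limma, adjusted p = 0.14). Without CTL replicate 3, the log2 fold change was 2.30 and passed the threshold (adjusted p = 0.020). It also passed with all 6 libraries when they were weighted by their estimated quality (2.75, adjusted p = 2.16e-05), although the estimation of the weights stopped before it converged.

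**Figure D2:**
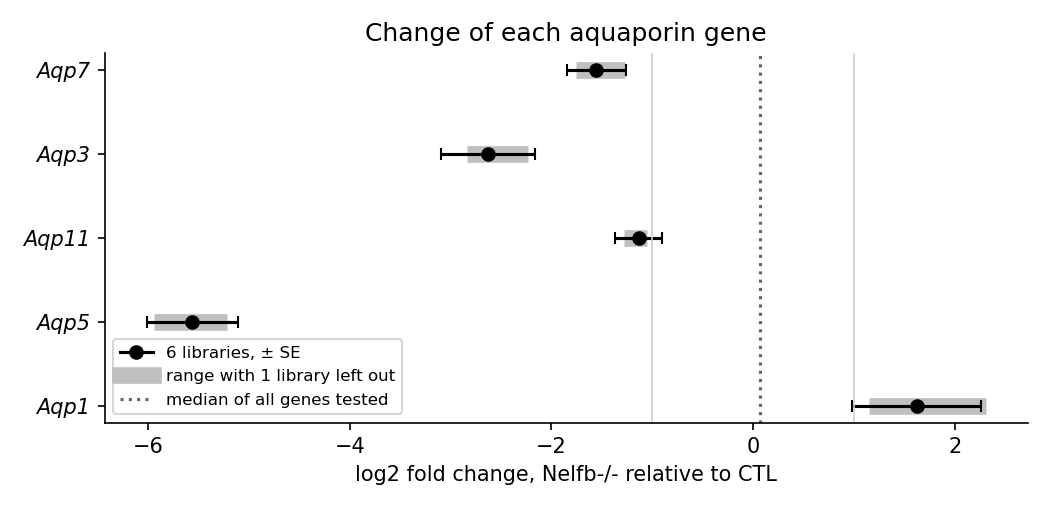
Fitted log2 fold change of each aquaporin gene (Nelfb-/- less CTL, log2 of reads at a common depth plus 1) with its standard error (bars), the range with each library left out in turn (gray bands), the 2-fold limits (thin lines) and the median of all genes tested (dotted line). The band of Aqp1 runs from 1.15 to 2.30, that of Aqp7 from -1.75 to -1.28, and no gene changes sign.

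The level of Aqp1 was also set beside that of fibroblast markers. Their summed level, from 8 of 8 markers and mostly from Col1a1, Col1a2 and Fn1, was 5956, 5120 and 16169 CPM for CTL replicates 1, 2 and 3 against 10102, 25404 and 27767 CPM for the Nelfb-/- libraries. Per 1000 CPM of these markers, Aqp1 came to 1.89, 3.14 and 3.46 CPM for CTL against 3.79, 3.41 and 3.21 CPM for Nelfb-/- libraries, and the groups overlapped. Between CTL replicates 1 and 2 the sum and Aqp1 differed in opposite directions. What part fibroblast content had in the level of Aqp1 was not tested. Of the 8 markers, 1 rose (Fn1, fibronectin, log2 fold change 1.41) and the median was 1.24. Over all genes tested, 7.58% were called higher and the median was 0.07. Per 1000 CPM of adipocyte markers, Aqp1 ranged from 0.271 to 2.28 CPM in CTL and from 2.03 to 3.60 CPM in Nelfb-/- cells.

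Endothelial markers, from the cell type in which Aqp1 is abundant, were scarce. All 8 had values and 6 could be tested, with summed levels of 7.85 to 12.1 CPM in CTL and 9.20 to 23.5 CPM in Nelfb-/- cells. Pecam1 was at 0.271 to 1.50 CPM in CTL and 2.44 to 3.89 CPM in Nelfb-/- cells, and Emcn was at 0 in CTL replicate 3. Kdr was at 1.77 to 4.87 CPM in CTL and 1.40 to 6.02 CPM in Nelfb-/- cells, and Tek at 1.46 to 3.83 and 1.16 to 2.84 CPM, with log2 fold changes of -0.37 and -0.53. Of the 6 tested, 4 had positive and 2 negative values, with a median of 0.87. Emcn was called higher, but it passed the filter through its Nelfb-/- libraries. The sum was highest in Nelfb-/- replicate 1, the Nelfb-/- library with the least Aqp1. The part of endothelial cells in the level of Aqp1 was not tested. None of 7 erythroid genes had values.

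**Figure D3:**
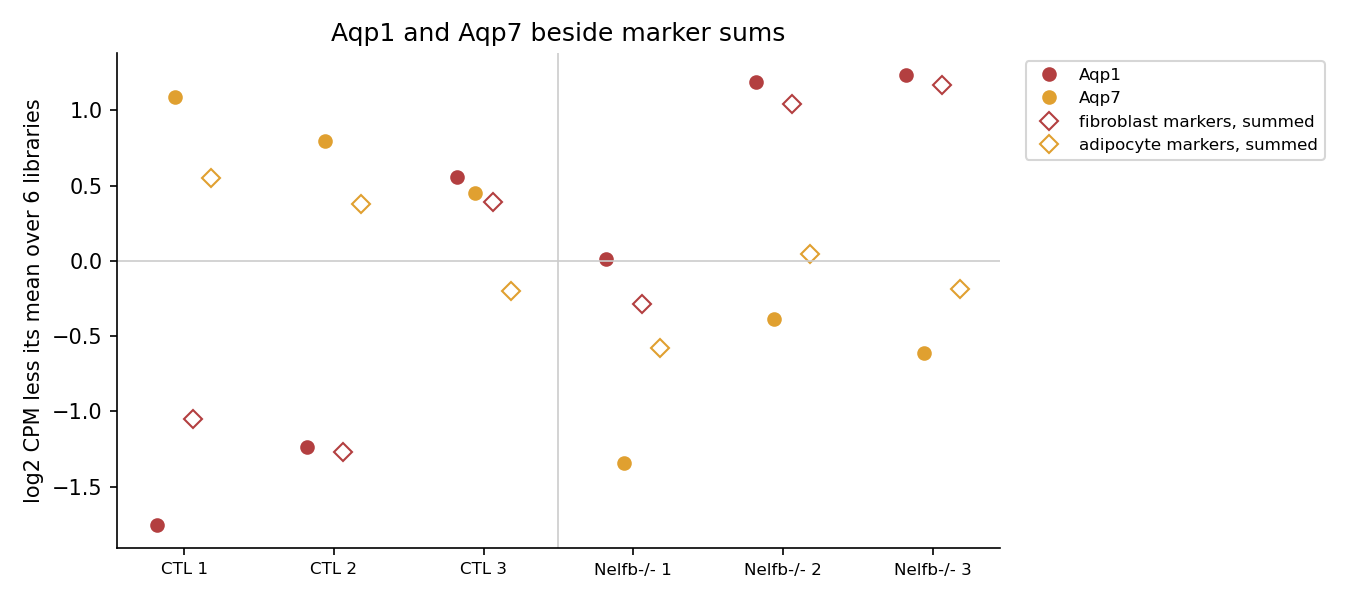
Log2 CPM of Aqp1, Aqp7, the 8 fibroblast markers summed and the 10 adipocyte markers summed in each library, each less its own mean over the 6 libraries. Aqp1 and the fibroblast sum are both low in CTL replicates 1 and 2 and high in Nelfb-/- replicates 2 and 3, and Aqp7 is below its mean in all 3 Nelfb-/- libraries.

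Other cell types also differed between groups. For the counts that follow, 7.58% of all genes tested were called higher and 3.64% lower. Macrophage markers summed to 174 to 613 CPM in CTL and 1698 to 5734 CPM in Nelfb-/- cells, with 7 of 8 called higher. Skeletal muscle markers summed to 7.47 to 9.72 and 46.1 to 72.7 CPM (5 of 5 tested called higher, of which Myog passed the filter through its Nelfb-/- libraries), with Myod1 at 0 in CTL replicates 1 and 3 and Ckm at 0 in CTL replicate 2. Schwann and glial markers summed to 59.0 to 108 and 123 to 185 CPM (5 of 7 had values, 2 called higher and 1 lower). Their part in the level of any aquaporin was not tested.

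Neighbors of Aqp1 within 200 kb were 2. Adcyap1r1, a receptor for the neuropeptide PACAP, 103 kb away, rose (log2 fold change 1.12 ± 0.21, limma, adjusted p = 0.019), and Mindy4, at 16.2 kb, had -0.65 ± 0.32 (adjusted p = 0.22). The Aqp1 window had 62.7% GC, 8 CpG and a GC box at -190 from the RefSeq start. That start lies upstream of the interval given for Aqp1 above, and the whole window is outside the interval. The window of Aqp11 had 68.0% GC, 27 CpG and AGGTCA at -230.

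Levels were compared between genes only per length, as TPM, the CPM per kb of joined exons scaled to the same total in each library. In CTL cells Aqp7 came first with 49.1 ± 10.4 TPM, followed by Aqp1 with 30.2 ± 27.1, Aqp5 with 16.2 ± 5.94, Aqp3 with 2.07 ± 1.14 and Aqp11 with 1.66 ± 0.179 TPM (SD, n = 3 each). The library ranges of Aqp7 and Aqp1 overlapped, as did those of Aqp1 and Aqp5 and those of Aqp3 and Aqp11. Aqp5 and Aqp3, next to each other in this order, did not overlap. Taking the longest transcript as the length put Aqp11 at 2.25 TPM, above Aqp3.

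In Nelfb-/- cells the order was Aqp1 with 87.7 ± 35.7 TPM, Aqp7 with 19.4 ± 6.23, Aqp11 with 0.855 ± 0.149, Aqp5 with 0.353 ± 0.207 and Aqp3 with 0.282 ± 0.031 TPM (SD, n = 3 each). Here the ranges of Aqp1, Aqp7 and Aqp11 were apart from each other, and those of Aqp5 and Aqp3 overlapped. Among the 17551 genes with a length, Aqp7 ranked 2868 by its mean in CTL and 6914 in Nelfb-/- cells. Aqp5 went from rank 6819 to 16722 and Aqp1 from rank 4431 to 1832.

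The summed level of the 5 genes overlapped between groups, at 88.5, 80.3 and 129 TPM in CTL and 60.4, 133 and 132 TPM in Nelfb-/- replicates 1, 2 and 3. The 5 shares make up the whole in each library, so a change in 1 gene moves the shares of the others. Aqp5, by which the family was chosen, is among them, and in CPM Aqp1 overlapped between the groups. The shares are therefore given as a description, and that of Aqp11 overlapped. Aqp7 made up 67.7, 59.9 and 30.4% of the sum in CTL and 20.7, 18.5 and 15.9% in Nelfb-/- libraries. Aqp1 made up 13.7, 21.3 and 47.7% in CTL and 76.9, 80.2 and 83.1% in Nelfb-/- libraries. Aqp5 contributed 15.1 to 17.8% in CTL and 0.231 to 0.436% in Nelfb-/- libraries, and Aqp3 1.58 to 2.62% and 0.219 to 0.410%. In CTL replicates 1 and 2 the most abundant aquaporin was therefore the glycerol channel Aqp7, and in CTL replicate 3 and every Nelfb-/- library it was the water channel Aqp1.

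**Figure D4:**
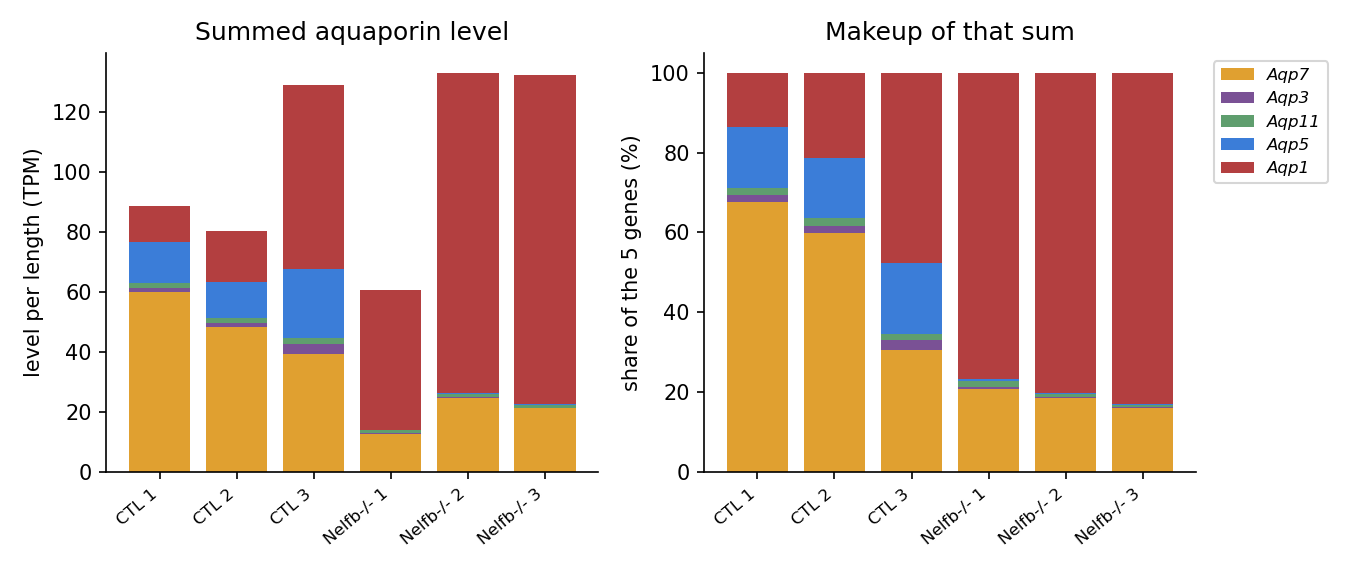
Stacked bars for each library, colored by gene, of the summed level of the 5 aquaporin genes in TPM (left) and of the percentage each gene makes up of that sum (right). Aqp7 fills 30.4 to 67.7% of the CTL bars, and Aqp1 fills 76.9 to 83.1% of the Nelfb-/- bars.

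Glycerol that leaves through Aqp7 is released by lipases and made or used by a set of enzymes. Of 18 symbols listed for glycerol release and use, 17 had values and were tested (Gyk did not). Among these 1 rose and 2 fell, beside 7.58% higher and 3.64% lower over all genes tested, and the median log2 fold change was -0.45. Pck1, the enzyme that feeds the synthesis of glycerol 3-phosphate from small precursors, fell by 6.47 on the log2 scale (limma, adjusted p = 0.0096). Its CTL values of 678, 616 and 55.9 CPM were uneven, with replicate 3 the lowest, and its Nelfb-/- values were 2.53 to 4.37 CPM. Slc2a4, the insulin-regulated glucose transporter, fell by 2.02 (adjusted p = 0.0057), and Gpd1l, a relative of Gpd1, rose by 1.01 (adjusted p = 0.010). Without Nelfb-/- replicate 3 the count called was 1.

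The lipases that yield the glycerol did not pass the test. Pnpla2, which starts triglyceride breakdown, had a log2 fold change of -0.79 ± 0.44, Lipe, the hormone-sensitive lipase, -0.45 ± 0.35, and Mgll, which frees the last fatty acid, -0.25 ± 0.53. Their adjusted p were 0.27, 0.42 and 0.77. Gk, which phosphorylates glycerol, stood at 17.6 to 19.2 CPM in CTL and 18.3 to 22.8 CPM in Nelfb-/- libraries (0.15 ± 0.15, adjusted p = 0.53). G0s2, an inhibitor of Pnpla2, was below its CTL range in every Nelfb-/- library, with a log2 fold change of -1.79 ± 0.66 that did not pass (adjusted p = 0.12).

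**Figure D5:**
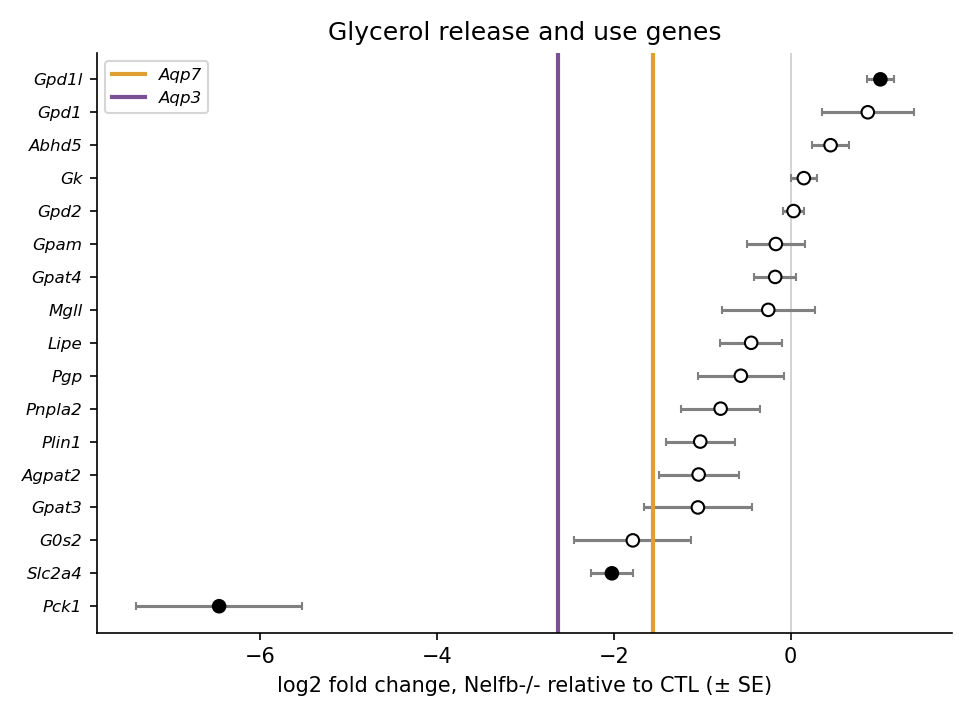
Fitted log2 fold change (Nelfb-/- less CTL) with its standard error for the 17 tested genes of glycerol release and use, filled where called, with vertical lines at the values of the aquaglyceroporins Aqp7 and Aqp3. Pck1, at -6.47, is the lowest, and the lipases Pnpla2, Lipe and Mgll lie between -0.79 and -0.25.

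In glands, Aqp5 works beside ion transporters and carbonic anhydrases that drive fluid across the epithelium. Of 18 genes listed for secretory water and chloride transport, 17 were tested (Cftr had no values), and 4 were called lower and 2 higher, where over all genes tested these shares were 3.64% and 7.58%. Car4, Cldn10 and Kcnn4 passed the filter on low values through the group in which they were high, so the count supports nothing about the list. The median log2 fold change was -0.04. Those lower were Car4 (-3.84) and Car2 (-1.68), which are carbonic anhydrases, Cldn10 (-3.0), a tight junction protein, and Slc4a4 (-1.54), a bicarbonate cotransporter. Those higher included Kcnn4 (2.72), a potassium channel. Car4 had 3.02, 3.83 and 9.69 CPM in CTL replicates 1, 2 and 3 against 0.0948, 0.524 and 0.449 CPM for the Nelfb-/- libraries. The count of 6 became 2 without CTL replicate 1, 1 without CTL replicate 2, 3 without Nelfb-/- replicate 2 and 2 without Nelfb-/- replicate 3.

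Cells that move water also adjust their volume. Of 24 genes for cell volume and osmotic response, all tested, 1 rose and 1 fell, no larger a share than the 11.2% called over all genes tested. Their median on the log2 scale was -0.05. Trpv4, a cation channel opened by swelling, rose by 2.87 (limma, adjusted p = 0.014), from 1.29 to 2.84 CPM in CTL to 7.51 to 22.3 CPM in Nelfb-/- libraries. Wnk4, a kinase that acts on chloride cotransporters, fell by 1.82 (adjusted p = 0.021). Nfat5, the transcription factor of the response to high salt, had a log2 fold change of -0.42 ± 0.15 (adjusted p = 0.11). The count of 2 was 1 without CTL replicate 1 and 0 without CTL replicate 2 or Nelfb-/- replicate 3.

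Several aquaporins also pass hydrogen peroxide, and some relatives pass ammonia. Of 18 genes listed for peroxide and ammonia handling, 16 were tested (Rhbg and Rhcg had no values), 2 fell and 1 rose, where 3.64% of all genes tested were lower and 7.58% higher, and the median log2 fold change was -0.23. The glutathione peroxidases Gpx3 and Gpx4 fell by 2.16 and 1.03, and Cyba, a subunit of the NADPH oxidases, rose by 1.24 (limma, adjusted p = 0.025, 0.0057 and 0.047). The count of 3 became 1 without CTL replicate 1 or CTL replicate 2 and 0 without Nelfb-/- replicate 3.

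Last, the tested genes whose log2 levels followed an aquaporin most closely over the 6 libraries were listed by Pearson's r, as a description of 6 points that share 2 groups. Nearest to Aqp5 were Grcc10 (r = 0.9998), Gm16379, Pla2g12a, Echs1 and Uqcrh, of which Echs1 is an enzyme of fatty acid oxidation and Uqcrh a subunit of respiratory complex III. Nearest to Aqp7 were Gata6 (r = 0.998), a transcription factor, Mnd1, Slc25a20, the mitochondrial carnitine carrier, Lrp2 and Dnajc4. Nearest to Aqp1 were Pgm3 (r = 0.998), Prkg2, Tll1, Colgalt1, a collagen galactosyltransferase, and Slc30a5. Among the members, r was 0.98 between Aqp3 and Aqp5 and 0.84 between Aqp3 and Aqp7, and it lay between -0.70 and -0.49 for Aqp1 with each of the others.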

How the data were processed

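Bulk RNA-seq of 3 CTL and 3 Nelfb-/- cultures, described in the study as biological replicates, was analysed. The labels do not tie libraries to animals, so p-values measure the spread between these samples. The authors deposited one table of CPM values per gene with an offset of 0.0001 added, which was subtracted here. The submitters' processing notes name STAR 2.7, Partek 9.0.20.0202 and mm10, whereas the study's methods name DESeq2 for alignment. The counting and its use of strand are not given in the sources used here. The smallest steps between values gave each library's depth. Of values of at most 20 reads, 69.4 to 72.0% came out within 0.02 of a whole number, so no count test was run across genes. The reads of Aqp3 and Aqp5 came out whole within 0.02 in all 6 libraries, and the interval given for Aqp3 rests on those.

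CPM were brought to a common depth of 22.3 M reads (M, 1000000), genes whose mean reached 10 reads (0.448 CPM) were kept, and log2(value + 1) was tested with limma 3.58.1 (abundance trend) in R 4.3.3, adjusted by Benjamini-Hochberg over all 16252 genes. Fold changes are on this log2(reads + 1) scale and understate changes of scarce genes. No aquaporin gene overlaps another gene in GENCODE vM21, from which IDs and exon lengths were taken (17551 genes matched by name). Positions are those of the table. Promoter windows are RefSeq's. The scripts were tested on simulated data. Python 3.11.15 and matplotlib 3.10.9 were also used.

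Named were the members, Nelfb, the 5 genes most like Aqp5, Aqp7 and Aqp1, up to 6 called genes per list (1 of them is not reported here), the nearest tested neighbors and markers. Pnpla2, Lipe, Mgll, Gk, G0s2, Gpd1, Nfat5, Nckap5l, Ube2r2, Dcaf12 and Aamdc were added after their values were seen. The members and lists were chosen with earlier results of these data known. Alternatives changed the pseudocount, filter, scaling, trend, library weights, replicate block, gene length and the libraries included.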

Additional observations from a re-analysis of the deposited data

How the results depend on the processing

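Leaving out each library in turn gave log2 fold changes of -5.94 to -5.21 for Aqp5, -1.75 to -1.28 for Aqp7, -2.84 to -2.24 for Aqp3, -1.28 to -1.05 for Aqp11, 1.15 to 2.30 for Aqp1 and -2.08 to -1.82 for Nelfb, whose call was kept throughout. It gave 426 to 2479 genes called in place of 1824, and 0 to 4 aquaporins called other than Aqp5 in place of 3. These counts include Aqp3, which passed the filter through its CTL libraries, and they support nothing about the family.

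With a pseudocount of 1 CPM the log2 fold changes were -0.96 for Aqp3, -0.90 for Aqp11 and -3.58 for Aqp5, and 1 aquaporin other than Aqp5 was called, since this pseudocount compresses low values. With library weights, whose estimation stopped before it converged, 4513 genes were called and Aqp1 passed (2.75, adjusted p = 2.16e-05). Aqp3 could not be tested with a filter at 1 CPM. Quantile normalization moved the median log2 fold change of all genes from 0.07 to -0.07 and the split of calls from 1232 higher and 592 lower to 1014 and 834. Under the 10 settings other than leaving out a library, Aqp7 stayed called (-1.64 to -1.50). No aquaporin changed sign under any setting run.

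Replicate numbers were not taken to pair the cultures, since deviations of same-numbered libraries correlated at 0.52, -0.39 and 0.52 for numbers 1, 2 and 3, and Nelfb-/- replicate 2 correlated best with CTL replicate 3. With the replicate block Aqp1 passed (1.62, adjusted p = 0.027), and 1505 genes were called higher and 670 lower.

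The 17 reads of Aqp5 and 10 reads of Aqp3 over the Nelfb-/- libraries limit how precisely their ratios are known.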
